A study of Mus musculus with 12 samples.

Results

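A set of 10 transcripts that mark or steer hormone-responsive and ErbB-dependent luminal epithelium was followed through whole-lung RNA-seq of MMTV-PyMT mice. They were taken by gene name from the deposited count table, and all 10 were present among its 56748 genes: the steroid hormone receptors Esr1 and Pgr, the prolactin receptor Prlr, the ErbB ligand Areg, the receptor tyrosine kinases Erbb2, Erbb3 and Erbb4, and the transcription factors Trps1, Tfap2c and Spdef. All 10 passed the filter on low counts that left 20229 genes for testing. The 12 libraries came from lungs at 4.5 months of age in 3 strains of 4 libraries each, all carrying MMTV-Cre and MMTV-PyMT, so the controls also carry both the recombinase and the oncogene. WT had these 2 transgenes alone, C3 KO carried C3Tdt in addition, and S1pr1 KO carried S1pr1fl/fl in addition. The mouse mammary tumour virus promoter that drives both transgenes is active mainly in mammary epithelium, and PyMT is the polyoma virus middle T antigen, an oncogene whose mammary tumours spread to the lung. Tumour cells were not separated from the lung, so every value sums over lung cells and any tumour cells in the tissue. Fewer cells of a type and less RNA per cell cannot be told apart in such data.

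The 4 ErbB receptors are cell-surface kinases that work as pairs. Erbb2 has no known ligand of its own and is the favoured partner of the others, Erbb3 has little kinase activity but recruits PI3 kinase, and Erbb4 binds neuregulins; amphiregulin, encoded by Areg, binds the EGF receptor. In the mammary gland, oestrogen acts through Esr1 in luminal cells to induce Pgr and Areg, prolactin acts through Prlr and STAT5 in milk-forming cells, and Trps1, Tfap2c and Spdef are regulators of luminal fate. Several of these genes also work in lung: Erbb2 and Erbb3 in airway and alveolar epithelium, Spdef in mucous secretory cells, and Erbb4 in developing lung and in heart muscle.

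Total counts per library ranged from 32274797 to 53063470, with 26691 to 28277 genes detected. Levels are given below as CPM, the read counts scaled to a common library size after trimmed mean of M-values (TMM) normalization. Each targeted gene was high in 1 library of its own group. C3 was at 465 to 601 CPM in C3 KO replicates 1 to 3 but at 1416 in replicate 4, against 787 to 1025 in WT. S1pr1 was at 132 to 154 CPM in S1pr1 KO replicates 1, 3 and 4 but at 366 in replicate 2, against 295 to 491 in WT. Results that rest on the library labelled C3 KO replicate 4 or the library labelled S1pr1 KO replicate 2 are therefore given with and without both. They are called libraries that go against their label by the CPM of the targeted gene alone. Every value sums over lung cells, and the promoter that drives the recombinase is active mainly in mammary epithelium. The level of a targeted gene in whole lung therefore cannot show whether a library matches its label. Whether the labels are wrong was not tested, and the values without both libraries are not to be preferred for that reason. The labels do not state whether libraries of 1 group are from separate animals. P-values here measure only the spread between these samples, which may be technical.

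Levels can be compared between genes only per length, in the deposited FPKM (fragments per kilobase of gene, scaled to library size). Erbb3 and Erbb2 were the most abundant of the 10, with means over the 12 libraries of 12.1 and 11.5 FPKM. Areg followed at 4.40, Trps1 at 1.89, Spdef at 0.865, Pgr at 0.816 and Esr1 at 0.237. Tfap2c at 0.144, Erbb4 at 0.0706 and Prlr at 0.0511 closed the order. Of the 9 neighbouring pairs in this order, the ranges over libraries did not overlap only for Erbb2 above Areg and for Pgr above Esr1. Within the same library, Trps1 was also above Spdef in 12 of 12 libraries, although the ranges overlapped, Areg was above Trps1 in 10 of 12 and Esr1 above Tfap2c in 9 of 12. The other 4 neighbouring pairs changed places from library to library, with the gene of higher mean ahead in 6 or 7 of 12. Erbb2 and Erbb3 together held 67.1% to 81.2% of the summed FPKM of the 10 genes in every library, and the ratio of Erbb2 to Erbb3 FPKM ranged from 0.679 in C3 KO replicate 4 to 1.20 in S1pr1 KO replicate 1. Per length, the lung held the co-receptor pair at a far higher level than any of the hormone receptors.

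**Figure D1:**
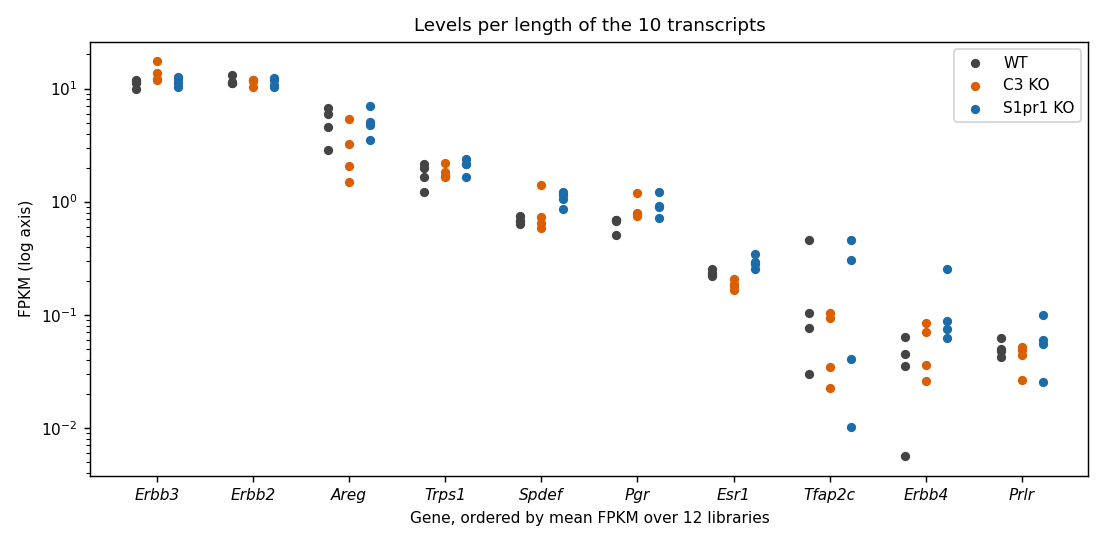
FPKM (log axis) of the 10 transcripts, ordered from left to right by their mean over 12 libraries, with 1 point per library coloured by genotype. Erbb3 and Erbb2 sit together near 12 FPKM, the ranges separate between Erbb2 and Areg and between Pgr and Esr1, and Tfap2c and Erbb4 have the widest scatter.

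None of the 10 genes passed the test in any comparison (edgeR quasi-likelihood test, adjusted p under 0.05 after Benjamini-Hochberg adjustment over all genes tested). The same test called 0.00989% of all genes for C3 KO against WT, 1.35% for S1pr1 KO against WT and 0.00% for S1pr1 KO against C3 KO. The unadjusted p was under 0.05 for 3 of the 10 in C3 KO against WT, where it was for 2217 of all 20229 genes tested. In S1pr1 KO against WT it was for 4 of the 10 and for 3651 of all genes, and in S1pr1 KO against C3 KO for 1 of the 10 and for 2437 of all genes. DESeq2 called 0, 0 and 1 of the 10 in these comparisons, the 1 being Esr1, and 0.878%, 6.34% and 1.57% of all genes. Limma voom with sample quality weights called 0 of the 10 in each, and 0.104%, 4.59% and 0.178% of all genes. The groups did not overlap for 3 of the 10 in C3 KO against WT (Esr1 lower, Pgr and Erbb3 higher), where 6.09% of all genes did not. They did not overlap for 2 of the 10 in S1pr1 KO against WT (Pgr and Spdef higher), where 11.3% of all genes did not. In S1pr1 KO against C3 KO they did not overlap for 1 of the 10 (Esr1 higher), where 6.40% of all genes did not. Without both libraries that go against their label the counts were 3, 2 and 3 of the 10, with Areg and Spdef added in the last comparison, against 10.4%, 17.3% and 20.9% of all genes, a wider background since fewer libraries overlap less. The 2 comparisons with WT share the WT libraries, and each KO group enters 2 comparisons.

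**Figure D2:**
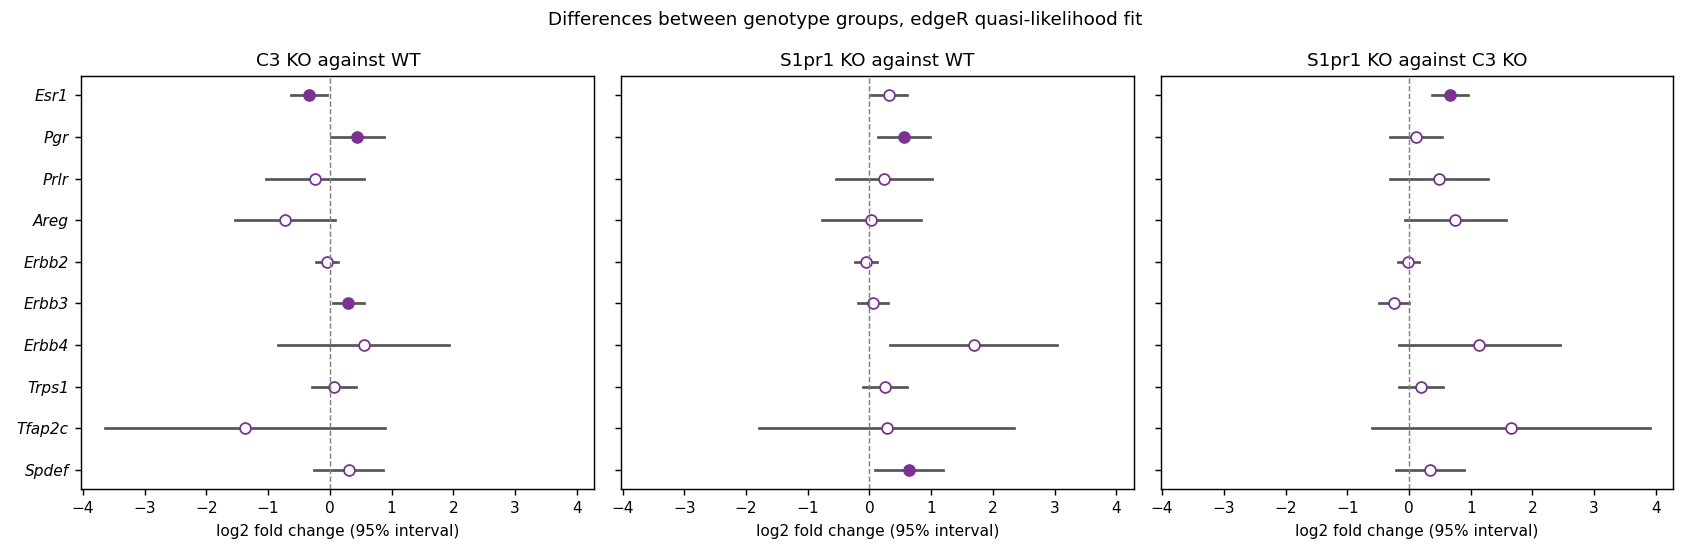
Log2 fold change of each of the 10 genes (points) with its 95% interval (lines) in the edgeR fit, for the 3 comparisons on 1 shared horizontal scale. Filled points mark genes whose libraries do not overlap between the groups; Erbb2 has the narrowest intervals and Tfap2c the widest, and no gene passed the adjusted threshold.

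**Figure D3:**
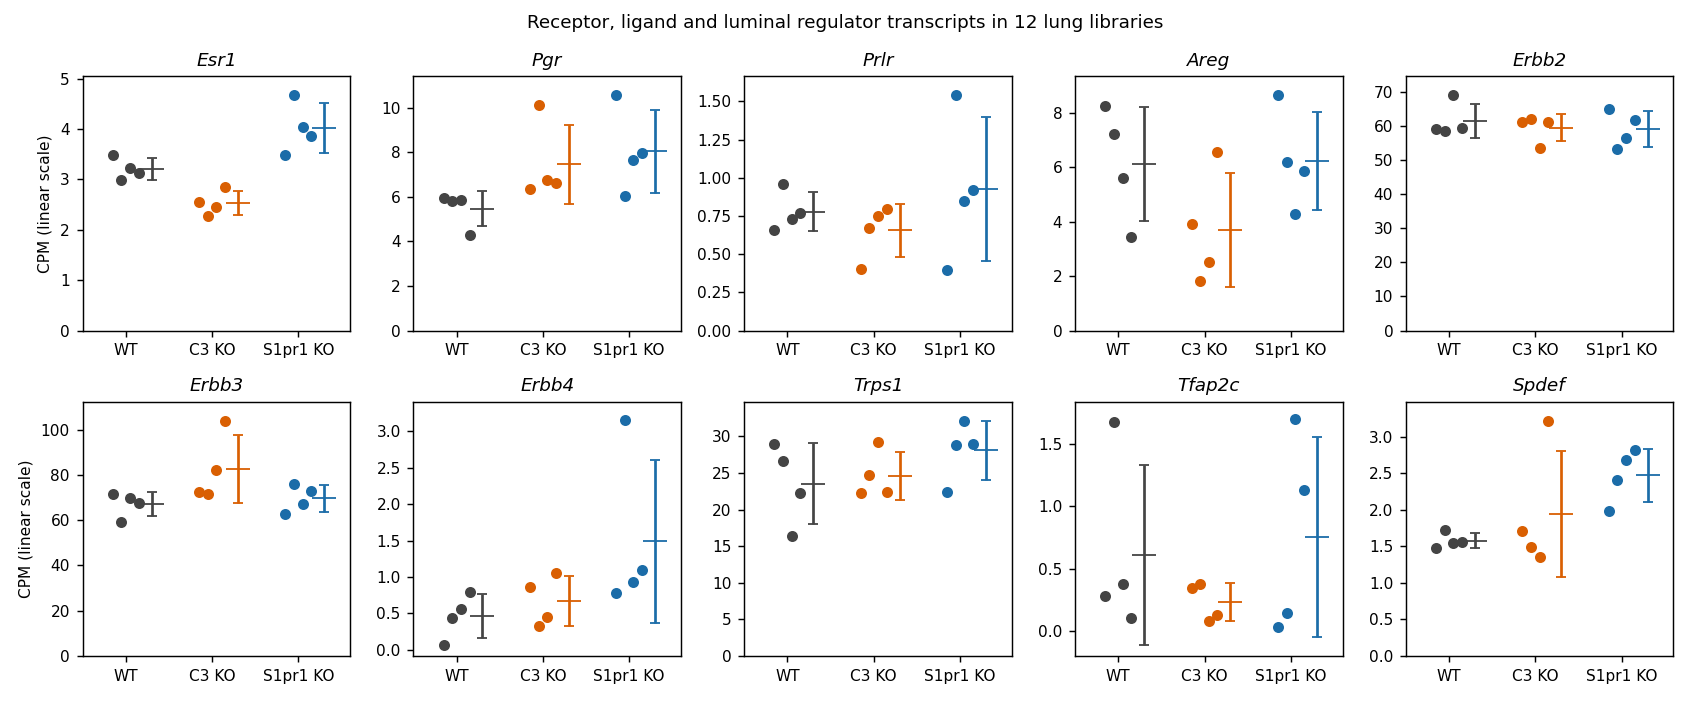
CPM on a linear scale in each of the 12 libraries (points), with group mean and SD (bars beside them, n = 4), for each of the 10 genes. Esr1 in C3 KO lies below every other library, and single high libraries stand out for Erbb4 in S1pr1 KO replicate 2 and for Erbb3 and Spdef in C3 KO replicate 4.

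Erbb2 lies on GRCm39 at chr11:98303296-98328542 (plus strand) and was the steadiest of the 10 genes. Its WT libraries held 59.2, 58.5, 69.1 and 59.4 CPM, the C3 KO libraries 61.1, 62.1, 53.7 and 61.2, and the S1pr1 KO libraries 65.0, 53.4, 56.4 and 61.9. The 3 groups overlapped throughout. Its log2 fold change was -0.048 ± 0.079 (SE; adjusted p = 0.878, edgeR) for C3 KO against WT, with a 95% interval of -0.22 to 0.12, and -0.056 ± 0.079 (adjusted p = 0.765) for S1pr1 KO against WT, with an interval of -0.23 to 0.12. Both intervals lie within a fold of 0.854 to 1.09, and its biological coefficient of variation of 0.0935 stood at the 21.3 percentile of all genes tested, from the lowest up.

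Erbb3, at chr10:128403392-128425521 (minus strand), was at 71.4, 59.3, 69.8 and 67.8 CPM in WT and at 72.6, 71.6, 82.1 and 104 in C3 KO. Every C3 KO library was above every WT library, but the lowest of them exceeded the highest WT library by only a small margin, and replicate 4 stood well above the rest. This was a log2 fold change of 0.30 ± 0.11 (SE), with an edgeR adjusted p of 0.381, and of 0.17 with an adjusted p of 0.473 without both libraries that go against their label. The S1pr1 KO libraries were at 62.8, 76.0, 67.1 and 73.2 CPM and overlapped both other groups, with a log2 fold change of 0.056 ± 0.11 against WT (adjusted p = 0.846, edgeR) and -0.24 ± 0.11 against C3 KO (adjusted p = 0.420).

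Erbb4, at chr1:68071345-69147218 (minus strand), had few reads, 3 to 127 per library. It was at 0.0702, 0.439, 0.556 and 0.796 CPM in WT, at 0.868, 0.322, 0.444 and 1.05 in C3 KO, and at 0.776, 3.15, 0.930 and 1.10 in S1pr1 KO. In S1pr1 KO, 3 of 4 libraries were above every WT library, and replicate 2 was the highest of the 12. The log2 fold change of S1pr1 KO against WT was 1.69 ± 0.62 (SE; 95% interval 0.33 to 3.04), with an edgeR adjusted p of 0.178. Leaving out both libraries that go against their label gave 1.01, with an adjusted p of 0.361.

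Heart muscle transcripts varied alongside Erbb4, although their correlation, given below, did not pass adjustment. The summed CPM of 8 cardiomyocyte markers, such as the cardiac myosin heavy chain Myh6 and the cardiac troponin Tnnt2, was 157 to 604 in WT, 387 to 751 in C3 KO and 737 to 2965 in S1pr1 KO. The highest sum was in S1pr1 KO replicate 2 and the lowest in WT replicate 1, the libraries with the highest and lowest Erbb4. All 8 markers were higher in S1pr1 KO than in WT, and 1 of them, Ryr2, passed the edgeR test, while DESeq2 called 5 and voom 3. Without both libraries that go against their label edgeR called 0 of the 8. With the cardiomyocyte score as a covariate, an alternative chosen after seeing the data, the Erbb4 log2 fold change of S1pr1 KO against WT was -0.45 (adjusted p = 0.737, edgeR). Summed adipocyte markers were also highest in S1pr1 KO replicate 2, at 271 CPM, against 34.1 to 102 in the other 11 libraries. Summed skeletal muscle markers were at 165 CPM in that library and at 237 in WT replicate 2, against 8.34 to 16.5 in the remaining libraries. The cardiomyocyte sums of WT and S1pr1 KO did not overlap, so in the covariate fit score and genotype cannot be told apart. The part of heart muscle, skeletal muscle or fat cells in the Erbb4 values was not tested.

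**Figure D4:**
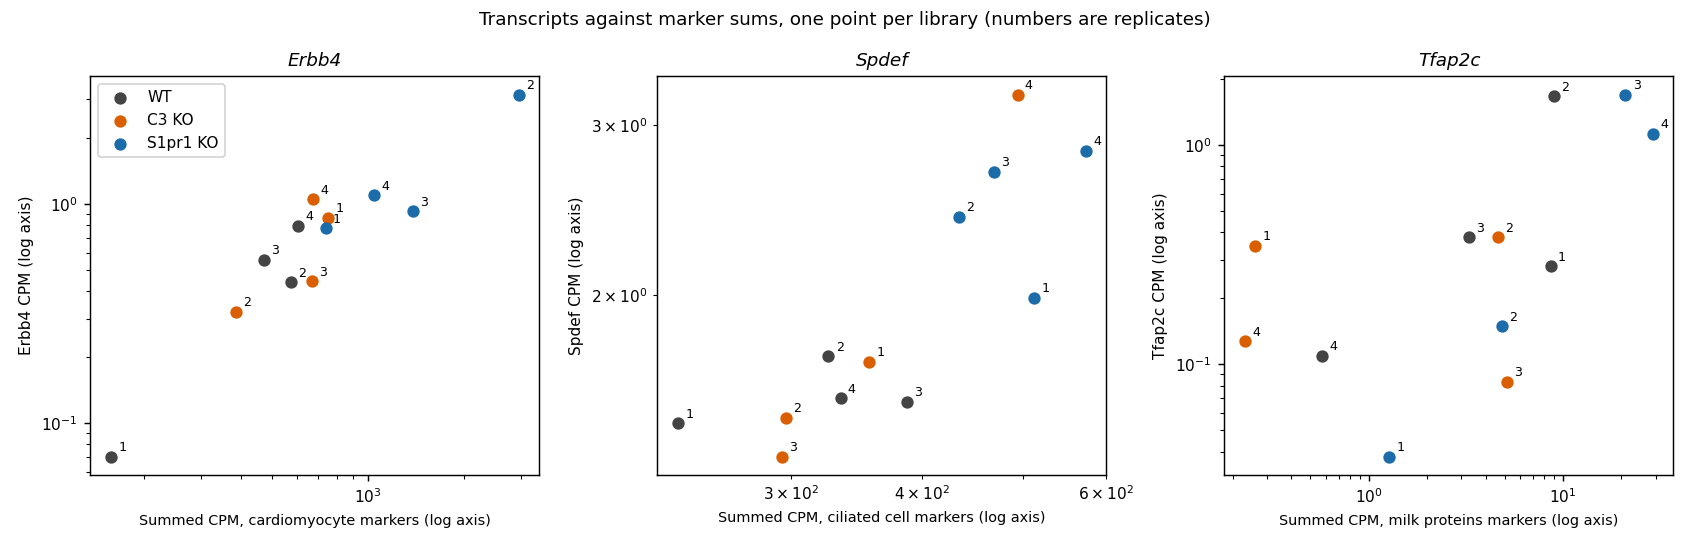
Transcript levels (CPM, vertical log axis) against the summed CPM of a marker list (horizontal log axis): Erbb4 against cardiomyocyte markers, Spdef against ciliated cell markers and Tfap2c against milk protein markers. Each point is 1 library, coloured by genotype and numbered by replicate; Erbb4 and the cardiomyocyte sum share their lowest (WT replicate 1) and highest (S1pr1 KO replicate 2) library.

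Areg, the ErbB ligand among the 10, lies at chr5:91287458-91296291 (plus strand) and varied widely within every group. The WT libraries were at 8.26, 7.21, 5.59 and 3.46 CPM, the C3 KO libraries at 3.93, 1.81, 2.53 and 6.55, and the S1pr1 KO libraries at 8.65, 6.19, 4.28 and 5.88. In C3 KO, 2 of 4 libraries were below every WT library and the groups overlapped. The log2 fold change was -0.72 ± 0.38 (SE; adjusted p = 0.509, edgeR) for C3 KO against WT, 0.029 ± 0.37 (adjusted p = 0.979) for S1pr1 KO against WT and 0.75 ± 0.37 (adjusted p = 0.458) for S1pr1 KO against C3 KO. Without both libraries that go against their label the value for C3 KO against WT was -1.15 (adjusted p = 0.302), and the 3 remaining C3 KO libraries were then below every S1pr1 KO library. The Areg promoter is shown because amphiregulin is a classical target of cAMP signalling and its upstream region holds the full palindrome of the cAMP response element, TGACGTCA. The sequence is that of RefSeq on GRCm38.p6 (an older build than the GRCm39 of the count table), plus strand, chr5:91139349-91139598, the 250 bases before the annotated start, with that element and the TATA box letters TATAAA in capitals.

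Areg: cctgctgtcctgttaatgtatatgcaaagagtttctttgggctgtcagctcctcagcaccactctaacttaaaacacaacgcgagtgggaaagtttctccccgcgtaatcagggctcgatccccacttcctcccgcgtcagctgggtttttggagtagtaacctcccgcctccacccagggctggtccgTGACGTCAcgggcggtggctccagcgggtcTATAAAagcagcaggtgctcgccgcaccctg

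The element lies 61 to 54 bases before the start and the TATA box letters 31 to 26 bases before it. TGACGTCA, searched on both strands, was held by 1.55% of 32851 RefSeq promoter windows of this length, and TATAAA by 12.4%. Of the 10 genes, 7 were matched in that table by symbol, with 10 starts; Erbb3, Trps1 and Tfap2c were not matched. TGACGTCA was held by Areg alone among the 10 starts, and TATAAA by Areg and Pgr. These matches describe letters and were looked for with the expression values already known.

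The other ErbB ligands did not pass the test either: of 8 tested (the list has 10 in the table), 3 were higher and 5 lower in C3 KO than in WT, where their median log2 fold change was -0.091. In S1pr1 KO 3 were higher and 5 lower, with a median of -0.031, beside medians over all genes tested of -0.00099 and -0.0011. Of the 8, 1, Nrg1, had an unadjusted p under 0.05 in each comparison with WT, and none was called by edgeR, DESeq2 or voom. Nrg1 encodes neuregulin 1, a ligand of Erbb3 and Erbb4, and was at 6.01 to 8.35 CPM in WT, 8.96 to 11.2 in C3 KO and 7.62 to 12.4 in S1pr1 KO. Every C3 KO library was above every WT library, while S1pr1 KO overlapped WT. Its log2 fold change was 0.49 ± 0.17 (SE; adjusted p = 0.354, edgeR) for C3 KO and 0.38 ± 0.17 (adjusted p = 0.260) for S1pr1 KO against WT, and 0.42 (adjusted p = 0.317) and 0.20 (adjusted p = 0.473) without both libraries that go against their label. Ereg, which encodes epiregulin, another ligand of the EGF receptor, was at 0.192 to 0.905 CPM in WT and 0 to 0.376 in C3 KO, with a log2 fold change of -0.99 ± 0.69 (SE). Nrg2, another neuregulin, gave -0.31 (adjusted p = 0.295, edgeR) in S1pr1 KO against WT. Among 17 genes of ErbB signal transmission, 9 were higher and 8 lower in C3 KO and 10 higher and 7 lower in S1pr1 KO, each against WT, with 0 called by edgeR, DESeq2 or voom and 0 and 4 with an unadjusted p under 0.05. Over all 20229 genes tested that p was under 0.05 for 2217 in C3 KO and 3651 in S1pr1 KO. The lowest p in S1pr1 KO belonged to Adam17, the protease that releases amphiregulin from the membrane, with a log2 fold change of -0.33 (adjusted p = 0.128, edgeR), and to the adaptor Grb2, with -0.22 (adjusted p = 0.154). In C3 KO it belonged to Erbin, which encodes a partner protein of Erbb2, with 0.14 (adjusted p = 0.473, edgeR), and to Errfi1, a feedback inhibitor of the EGF receptor, with -0.57 (adjusted p = 0.480). Egfr, the receptor that amphiregulin binds, was at 26.4 to 38.3 CPM in WT, 30.7 to 48.0 in C3 KO and 24.8 to 49.4 in S1pr1 KO, so its groups overlapped.

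Esr1, the oestrogen receptor alpha gene at chr10:4561593-4955614 (plus strand), separated the 2 KO groups. The values were 3.49, 2.99, 3.22 and 3.13 CPM in WT and 2.54, 2.28, 2.44 and 2.84 in C3 KO. The S1pr1 KO libraries were at 3.48, 4.67, 4.04 and 3.86. All C3 KO libraries were below all others, and 3 of 4 S1pr1 KO libraries were above every WT library. The log2 fold change of S1pr1 KO against C3 KO was 0.66 ± 0.13 (SE; 95% interval 0.37 to 0.96, a fold of 1.29 to 1.94), with an unadjusted p of 0.000319 and an adjusted p of 0.124 in edgeR. DESeq2 gave 0.65 and an adjusted p of 0.00425, which passed the threshold, and voom with quality weights an adjusted p of 0.0527. Dropping both libraries that go against their label gave 0.64 (adjusted p = 0.137, edgeR), and leaving out each library in turn gave 0.58 to 0.73. Against WT the values were -0.34 ± 0.14 for C3 KO (adjusted p = 0.392, edgeR) and 0.32 ± 0.13 for S1pr1 KO (adjusted p = 0.226). Of all comparisons of the 10 genes, this difference between the KO groups came closest to the edgeR threshold.

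RefSeq lists 2 starts for Esr1 on GRCm38.p6, and both upstream regions are shown because they hold different motifs of luminal regulators. The first, chr10:4611739-4611988 (plus strand), has in capitals the only match among the 10 starts to the AP-2 letters GCCNNNGGC, the family of Tfap2c. The second, chr10:4709908-4710157 (plus strand), has in capitals a match to TTCNNNGAA, the letters bound by STAT factors, which act below the prolactin receptor.

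Esr1 start 1: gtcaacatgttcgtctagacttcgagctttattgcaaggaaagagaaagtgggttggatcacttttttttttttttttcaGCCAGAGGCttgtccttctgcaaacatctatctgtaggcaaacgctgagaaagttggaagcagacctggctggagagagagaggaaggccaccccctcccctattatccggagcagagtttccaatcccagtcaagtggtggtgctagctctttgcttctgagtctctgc
Esr1 start 2: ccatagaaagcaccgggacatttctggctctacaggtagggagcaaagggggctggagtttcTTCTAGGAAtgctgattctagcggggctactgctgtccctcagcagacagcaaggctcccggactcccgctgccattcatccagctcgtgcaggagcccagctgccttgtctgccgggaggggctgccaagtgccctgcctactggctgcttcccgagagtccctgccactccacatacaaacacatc

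GCCNNNGGC was held by 13.7% of all promoter windows and TTCNNNGAA by 7.02%, so neither match is rare, and Prlr held TTCNNNGAA too. The palindromic oestrogen response element, the letters GGTCA and TGACC with 3 bases of any kind between them, was held by 0.0639% of windows and by none of the 10 starts. The letters GATAAG, bound by GATA factors, were held by 6.55% of windows and by none of the 10 starts. CCGGAA, the ETS letters, was held by 3952 of the 32851 windows and by Erbb4. Counts per gene do not say which start was in use.

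Genes that work with the oestrogen receptor showed no shared direction. Of 14 tested, 9 were higher in C3 KO than in WT where their median log2 fold change was 0.069, and 8 were higher in S1pr1 KO with a median of 0.039. EdgeR called 0, while DESeq2 called 1 and voom 0 in S1pr1 KO against WT. An unadjusted p under 0.05 was found for 3 in each comparison, beside 2217 and 3651 of all 20229 genes tested. Greb1, a classical oestrogen-induced gene, was at 2.81 to 4.42 CPM in WT, 1.30 to 5.50 in C3 KO and 1.04 to 2.12 in S1pr1 KO, so every S1pr1 KO library was below every WT library. Its log2 fold change of S1pr1 KO against WT was -1.21 with an edgeR adjusted p of 0.143, and DESeq2 called it. Myb, a transcription factor of both luminal and blood-forming cells, gave 0.49 (adjusted p = 0.183, edgeR) and passed the edgeR test without both libraries that go against their label. In C3 KO the lowest p belonged to the co-repressors Nrip1, at 0.27 (adjusted p = 0.319, edgeR), and Ncor1, at 0.20 (adjusted p = 0.327).

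Pgr, the progesterone receptor gene at chr9:8899834-8968612 (plus strand), was higher in both KO groups than in every WT library. Its values were 5.94, 5.82, 5.86 and 4.31 CPM in WT and 6.36, 10.1, 6.75 and 6.63 in C3 KO. In S1pr1 KO they were 10.6, 6.06, 7.65 and 7.96. The lowest library of S1pr1 KO, replicate 2, was close to the highest of WT. Compared with WT, the log2 fold change was 0.45 ± 0.20 (SE; 95% interval 0.020 to 0.87; adjusted p = 0.434, edgeR) for C3 KO and 0.56 ± 0.20 (0.13 to 0.98; adjusted p = 0.159) for S1pr1 KO, both against the same WT libraries. After removal of both libraries that go against their label these were 0.50 (adjusted p = 0.383) and 0.67 (adjusted p = 0.101). Without C3 KO replicate 2 the first was 0.27. The second was 1.10 (adjusted p = 0.132, edgeR) with the cardiomyocyte score as a covariate, an alternative chosen after seeing the data. WT and S1pr1 KO did not overlap in the sum of those markers, so score and genotype cannot be told apart there. On the log2(FPKM + 1) scale, which understates changes of low genes, the second was 0.24 (adjusted p = 0.241, limma). The ratio of Pgr to Esr1 FPKM was 2.20 to 3.11 in WT, 3.73 to 7.09 in C3 KO and 2.07 to 4.85 in S1pr1 KO. That C3 KO separates from WT in this ratio follows from Pgr being above and Esr1 below every WT library, and is no further result.

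In the progesterone and RANK list, 2 of 9 tested genes were higher in C3 KO and 5 of 9 in S1pr1 KO than in WT, with medians of -0.058 and 0.030, and 0 called by edgeR, DESeq2 or voom and 0 with an unadjusted p under 0.05 in either. The lowest p in C3 KO belonged to Wnt4, a paracrine signal made downstream of the progesterone receptor, with a log2 fold change of -0.26 (adjusted p = 0.493, edgeR), and to Fkbp4, a co-chaperone of steroid receptors, with 0.28 (adjusted p = 0.662). In S1pr1 KO it belonged to Pgrmc2, a membrane haem-binding protein, with -0.14 (adjusted p = 0.346, edgeR), and to the calcitonin gene Calca, with -0.77 (adjusted p = 0.407). The RANK ligand gene Tnfsf11, another classical progesterone-induced paracrine signal, was low, at a mean of 0.414 CPM over the 12 libraries.

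Prlr, at chr15:10177324-10349266 (plus strand), was the least abundant of the 10 per length, with 14 to 62 reads per library. WT libraries were at 0.655, 0.960, 0.732 and 0.768 CPM, C3 KO libraries at 0.405, 0.673, 0.750 and 0.793, and S1pr1 KO libraries at 0.398, 1.54, 0.850 and 0.920. The groups overlapped, and the highest library was again S1pr1 KO replicate 2. It had a log2 fold change of -0.24 ± 0.37 (SE; adjusted p = 0.861, edgeR) for C3 KO and 0.24 ± 0.36 (adjusted p = 0.778) for S1pr1 KO against WT. The latter was -0.13 without both libraries that go against their label. The hormone itself, Prl, had no read in any of the 12 libraries, which allows up to 3 reads per library, or 0.0568 to 0.0890 CPM.

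Of 10 tested genes of the prolactin and STAT5 pathway, 2 were higher in C3 KO than in WT (median log2 fold change -0.13) and 3 in S1pr1 KO (median -0.039), with 0 called by edgeR in either. An unadjusted p under 0.05 was found for 0 and 3, beside 2217 and 3651 of all 20229 genes tested. Stat5b, a transcription factor activated below the prolactin and growth hormone receptors, was at 107 to 118 CPM in WT and 95.4 to 101 in S1pr1 KO, and the groups did not overlap. Its log2 fold change was -0.21 with an edgeR adjusted p of 0.0756, and both DESeq2 and voom called it. Socs3, a feedback inhibitor of cytokine receptors, gave -0.63 (adjusted p = 0.188, edgeR) in the same comparison. In C3 KO the lowest p belonged to the growth hormone receptor Ghr, at -0.19 (adjusted p = 0.473, edgeR), and to the feedback inhibitor Cish, at -0.28 (adjusted p = 0.506).

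Trps1, a GATA-type repressor and marker of breast epithelium that is also made by fibroblasts and cartilage, lies at chr15:50518148-50753859 (minus strand). The WT libraries were at 29.0, 26.6, 16.4 and 22.2 CPM, the C3 KO libraries at 22.2, 24.7, 29.3 and 22.3, and the S1pr1 KO libraries at 22.4, 28.8, 32.2 and 28.9. The groups overlapped, and the lowest library of the 12 was WT replicate 3. The log2 fold change was 0.063 ± 0.17 (SE; adjusted p = 0.928, edgeR) for C3 KO and 0.25 ± 0.16 (adjusted p = 0.458) for S1pr1 KO against WT. The latter depended on the setting: it was 0.70 (adjusted p = 0.219, edgeR) with the ciliated score and 0.038 (adjusted p = 0.930) with the milk protein score as a covariate, and 0.11 without WT replicate 3. WT and S1pr1 KO did not overlap in the summed ciliated markers, so score and genotype cannot be told apart in the fit with that score.

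Tfap2c, the AP-2 gamma gene at chr2:172391513-172400542 (plus strand), was near the detection limit in most libraries, with 2 to 64 reads, and at or above 1 CPM in only 3. It was at 0.281, 1.67, 0.381 and 0.110 CPM in WT, at 0.347, 0.381, 0.0833 and 0.128 in C3 KO, and at 0.0379, 0.149, 1.70 and 1.13 in S1pr1 KO. The high libraries were WT replicate 2 and S1pr1 KO replicates 3 and 4, so its spread lay within genotypes, and its biological coefficient of variation of 0.920 stood at the 99.5 percentile of all genes. Fitted log2 fold changes were -1.38 ± 1.05 (SE; adjusted p = 0.675, edgeR) for C3 KO and 0.28 ± 0.95 (adjusted p = 0.917) for S1pr1 KO against WT. Without WT replicate 2 the former was -0.13.

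Milk protein markers were high in 2 of these 3 libraries. The sum of 8 milk protein transcripts was 29.1 and 21.0 CPM in S1pr1 KO replicates 4 and 3, and 9.0 in WT replicate 2, close to the 8.64 of WT replicate 1, where Tfap2c was low; in the other 8 libraries it was 0.230 to 5.16. Most of it was Csn3, kappa casein, at 25.4, 19.0, 8.23 and 8.03 CPM in those 4 libraries. Csn1s2b, another casein, was at 0 in 10 of the 12 libraries, including every WT library. It reached at most 0.0278 CPM in C3 KO and 0.0297 in S1pr1 KO. After subtracting group means, Tfap2c and the milk protein score had r = 0.43 (permutation p = 0.152, adjusted 0.576) and rho = 0.50 (permutation p = 0.126, adjusted 0.667), and r = 0.53 without the 2 farthest libraries. Other scores had an r of larger size with Tfap2c. These were alveolar type 1 at -0.76 (permutation p = 0.0814, adjusted 0.510) and mammary luminal at 0.64 (permutation p = 0.0944, adjusted 0.510). Proliferation at 0.53 and club and secretory at 0.47 were also larger. With the milk protein score as a covariate the Tfap2c log2 fold change of S1pr1 KO against WT was -1.04 (adjusted p = 0.707, edgeR). The part of mammary cells in the Tfap2c values was not tested. The general luminal markers, which include the keratins Krt8 and Krt18 that lung epithelium also makes, had sums of 1064 to 1199 CPM in WT, 1077 to 1259 in C3 KO and 1178 to 1390 in S1pr1 KO. Of 10 tested, 5 were higher in C3 KO and 7 in S1pr1 KO than in WT, beside 49.8% of all genes tested in each comparison. In S1pr1 KO against WT edgeR called 0, while DESeq2 and voom each called 1, Prom1, as higher. Without both libraries that go against their label edgeR called Prom1 too.

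Spdef, an ETS-family factor of mucous and luminal secretory cells at chr17:27933326-27947929 (minus strand), was higher in every S1pr1 KO library than in every WT library. It was at 1.47, 1.73, 1.55 and 1.56 CPM in WT and at 1.99, 2.41, 2.68 and 2.82 in S1pr1 KO. The C3 KO libraries were at 1.71, 1.49, 1.36 and 3.22, with replicate 4 the highest of the 12. The log2 fold change of S1pr1 KO against WT was 0.64 ± 0.25 (SE; 95% interval 0.092 to 1.20), with an edgeR adjusted p of 0.204. With both libraries that go against their label left out it was 0.66 with an adjusted p of 0.0897, and that of C3 KO against WT changed from 0.30 to -0.055.

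Ciliated cell markers were also higher in S1pr1 KO. Their summed CPM was 234 to 387 in WT, 294 to 494 in C3 KO and 434 to 575 in S1pr1 KO, and within C3 KO it was highest in replicate 4, the library with the highest Spdef. All 10 ciliated markers were higher in S1pr1 KO than in WT, and 2 passed the edgeR test, while DESeq2 called 5 and voom 6. Without both libraries that go against their label edgeR called 5. In a fit that included the ciliated score, the Spdef log2 fold change of S1pr1 KO against WT was 0.061 (adjusted p = 0.962, edgeR). Over the libraries, after subtracting group means, Spdef and the ciliated score had r = 0.66 (permutation p = 0.0410, adjusted 0.319) and rho = 0.53 (permutation p = 0.0929, adjusted 0.566), and r = 0.50 without WT replicate 1 and C3 KO replicate 4. Club and secretory cell markers were higher in S1pr1 KO than in WT for 7 of 9, with a median log2 fold change of 0.71 beside 0.51 for the ciliated markers, and 0 passed the edgeR test while DESeq2 called Reg3g. Their summed CPM overlapped, at 20711 to 32488 in WT and 17171 to 28055 in S1pr1 KO, but most of that sum was Scgb1a1, the club cell secretory protein, at a mean of 20236 CPM. The ciliated sums of WT and S1pr1 KO did not overlap, so in the covariate fit score and genotype cannot be told apart. The part of airway cells in the Spdef values was not tested.

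Among 14 tested relatives and partners of the AP-2, GATA and SPDEF factors, 11 were higher in C3 KO than in WT, where the median log2 fold change was 0.25, and 8 were higher in S1pr1 KO, with a median of 0.24; over all genes tested 49.8% were higher in each comparison. EdgeR called 0 in either comparison, DESeq2 0 and 1, and voom 0. An unadjusted p under 0.05 was found for 1 and 4, beside 2217 and 3651 of all 20229 genes tested. Cldn4, a tight junction protein of barrier epithelium, was at 3.73 to 5.98 CPM in WT and 5.84 to 8.88 in S1pr1 KO, with a log2 fold change of 0.58 (adjusted p = 0.102, edgeR), and was called by DESeq2. Elf3, an epithelial ETS factor, had the next p in that comparison, with 0.45 (adjusted p = 0.205, edgeR). In C3 KO against WT the lowest p belonged to another epithelial ETS factor, Ehf, with 0.47 (adjusted p = 0.383, edgeR), and to the membrane-tethered factor Creb3l1, with 0.21 (adjusted p = 0.488).

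Of the 10 genes, 5 were higher and 5 lower in C3 KO than in WT (median log2 fold change 0.0079). In S1pr1 KO 9 were higher than in WT, all but Erbb2, with a median of 0.26, while 49.8% of all genes tested were higher. With the cardiomyocyte score as a covariate Prlr, Erbb4 and Tfap2c were lower and Erbb2 higher in that comparison, and with the ciliated score Areg and Erbb3 were lower. The count of higher genes therefore changed with the covariate used. WT and S1pr1 KO did not overlap in the summed markers of either list, so score and genotype cannot be told apart in these fits.

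The 10 genes did not vary as 1 block from library to library. After subtracting group means from log2 CPM, 45 pairs were compared over the 12 libraries with permutation within groups, and none passed Benjamini-Hochberg adjustment. The closest was Esr1 with Erbb3, at Pearson r = 0.77 (permutation p = 0.00509, adjusted 0.184) and Spearman rho = 0.71 (permutation p = 0.0190, adjusted 0.285), and r = 0.64 without the 2 libraries farthest from the Esr1 median. Erbb2 and Trps1 varied in opposite directions, with r = -0.80 (permutation p = 0.00817, adjusted 0.184) and rho = -0.73 (permutation p = 0.0174, adjusted 0.285), and r = -0.58 without the 2 farthest libraries. Pgr and Erbb4 also varied in opposite directions, with r = -0.70 (permutation p = 0.0258, adjusted 0.387) and rho = -0.80 (permutation p = 0.00680, adjusted 0.285). Esr1 and Pgr, which oestrogen links in the mammary gland, had r = -0.66 (permutation p = 0.0494, adjusted 0.548) and rho = -0.60 (permutation p = 0.0703, adjusted 0.686).

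Cell type markers were compared with the 10 genes in the same way, over 140 pairs, of which none passed the adjustment and 18 had an unadjusted permutation p under 0.05. By permutation p, Erbb4 stood closest to the adipocyte score, with r = 0.88 (permutation p = 0.000460, adjusted 0.0644) and rho = 0.91 (permutation p = 0.000880, adjusted 0.0616), and r = 0.92 without the 2 farthest libraries. Its Pearson r with the cardiomyocyte score was slightly higher, at 0.90 (permutation p = 0.00233, adjusted 0.163), with rho = 0.90 (permutation p = 0.00328, adjusted 0.0977), and r = 0.79 without WT replicate 1 and S1pr1 KO replicate 2. Pgr ran the other way, with r = -0.84 (permutation p = 0.00551, adjusted 0.174) for the adipocyte score and r = -0.77 (permutation p = 0.00669, adjusted 0.174) for the cardiomyocyte score; the rho values were -0.83 (permutation p = 0.00349, adjusted 0.0977) and -0.80 (permutation p = 0.00870, adjusted 0.203). Erbb3 followed the alveolar type 2 score, with r = 0.74 (permutation p = 0.0140, adjusted 0.280) and rho = 0.72 (permutation p = 0.0169, adjusted 0.304), and r = 0.54 without the 2 farthest libraries. Trps1 and the milk protein score had r = 0.67 (permutation p = 0.00747, adjusted 0.174) and rho = 0.74 (permutation p = 0.00295, adjusted 0.0977), and r = 0.52 without the 2 farthest libraries. The r of Trps1 was of larger size with 2 other scores. It was -0.70 (permutation p = 0.0249, adjusted 0.291) for ciliated cells and 0.68 (permutation p = 0.0339, adjusted 0.319) for basophils, mast cells and ILC2. Spdef had r = 0.59 (permutation p = 0.0217, adjusted 0.291) and rho = 0.73 (permutation p = 0.000430, adjusted 0.0602) with the club and secretory score. With the alveolar type 1 score Spdef had r = -0.46 (permutation p = 0.00650, adjusted 0.174). Esr1 and the mesothelium score had r = 0.76 (permutation p = 0.0240, adjusted 0.291), and r = 0.80 without the 2 farthest libraries. Not all of the 18 pairs are named here.

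**Figure D5:**
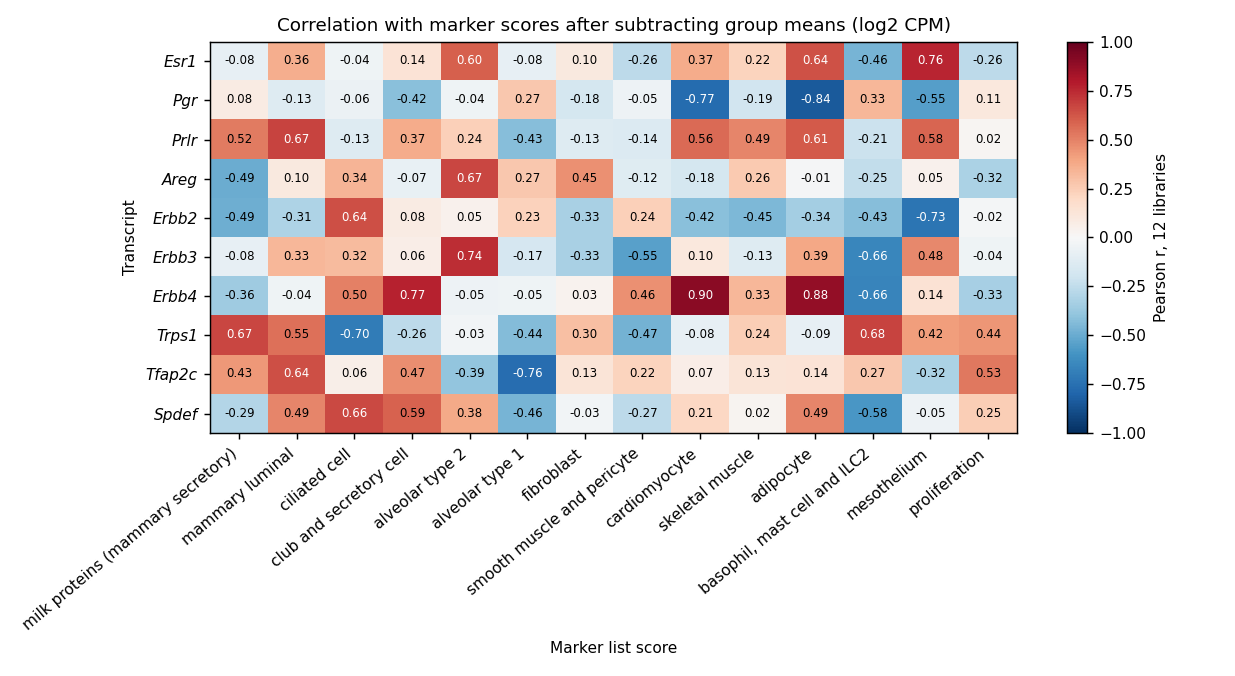
Pearson r over 12 libraries between each of the 10 genes (rows) and the mean log2 CPM of each of 14 marker lists (columns), after subtracting group means. Red is positive and blue negative; the strongest cells are Erbb4 with the cardiomyocyte (0.90) and adipocyte (0.88) scores and Pgr with the adipocyte score (-0.84), and none of the 140 passed adjustment.

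The protein-coding genes whose log2 CPM ran closest to each of the 10 over all 12 libraries were named by rank of Pearson r among 13920 candidates with a mean of at least 1 CPM, as a description that includes the group differences. For Erbb4 they were the heart genes Tnnt2 (r = 0.96) and Cacna1h (r = 0.95), the latter a T-type calcium channel. For Spdef they were Prom1 (r = 0.94), a membrane protein of luminal and ciliated epithelium, and A2ml1 (r = 0.93), a protease inhibitor. Areg ran with the homeobox gene Irx2 (r = 0.95) and with Tmem150c (r = 0.89). Erbb3 ran with the scaffold gene Iqgap1 (r = 0.95) and Ralgapa2 (r = 0.93), and Erbb2 with Ocrl (r = 0.90) and Ebag9 (r = 0.88). Esr1 ran with Atp5md (r = 0.94), a subunit of mitochondrial ATP synthase, and Pgr with Fam83f (r = 0.92) and Ssbp3 (r = 0.90). Trps1 ran with the kinase gene Camk1d (r = 0.91) and Fubp1 (r = 0.90), and Prlr with Zfhx4 (r = 0.88) and the transporter gene Slc47a1 (r = 0.85). Tfap2c ran with Stac2 (r = 0.83) and Gjb2 (r = 0.83), the gene of the gap junction protein connexin 26.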

How the data were processed

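Whole-lung RNA from 12 MMTV-PyMT mouse samples was sequenced. Groups were taken from the genotype labels, and replicate numbers follow the order of deposition. The deposited counts are whole-number read counts per gene, 1 column per library, and the authors also deposited FPKM values and a gene length in bases. CASAVA, STAR and the builds GRCm39 and mm39 are named without versions, per the submitters' processing notes. For the counting tool, strand mode and annotation version the sources used here give nothing, and reads of overlapping or antisense genes may therefore be mixed. The FPKM of the authors were used for levels between genes and in an alternative.

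The main test was run in edgeR 4.0.16 (R 4.3.3): filterByExpr (20229 of 56748 genes kept), TMM scaling and a quasi-likelihood fit with a mean per group over all 12 libraries (9 residual degrees of freedom), with Benjamini-Hochberg adjustment over all genes and a threshold of 0.05. SE is the log2 fold change over the square root of the F statistic. The fit was tested on simulated data. Alternatives used DESeq2 1.42.0, limma 3.58.1 (voom, and log2 of FPKM with a pseudocount of 0.1 or 1 for genes with at least 0.5 FPKM in 4 libraries), other filters and scaling, marker scores as covariates, and left-out libraries. Correlations used 100000 permutations within groups. Counts of 2 to 64 reads in Tfap2c and 3 to 127 in Erbb4 limit their precision. Promoter windows are RefSeq's on GRCm38.p6.

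The 10 genes, the pathway lists and the marker lists were chosen with earlier results of these data known. The genes named are the 10, C3 and S1pr1, from each pathway list any called gene and the 2 of lowest p in each KO against WT, and the 2 genes most alike to each of the 10, of which 1 is not reported here; marker genes at 0 in a group were named too, and Egfr, Tnfsf11, Prl and the markers Myh6, Tnnt2, Ryr2, Csn3, Krt8, Krt18, Reg3g and Scgb1a1 were named in addition after their values were seen. A symbol with several identifiers (Nrg1) stands for its only tested one.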

Additional observations from a re-analysis of the deposited data

Results flagged for a closer look

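Within each group of 4 libraries, the CPM of each of the 10 genes was checked for a single library far from the others (a ratio of the gap to the range above Dixon's 95% critical value). Of 30 groups tested, 5 held such a library, and chance gives about 1 in 20. Pgr was lowest in WT replicate 4, at 4.31 CPM with the nearest at 5.82, and highest in C3 KO replicate 2, at 10.1 with the nearest at 6.75. Erbb2 was highest among WT in replicate 3, at 69.1 CPM with the nearest at 59.4, and lowest among C3 KO in replicate 3, at 53.7 with the nearest at 61.1. Erbb4 was highest among S1pr1 KO in replicate 2, at 3.15 CPM with the nearest at 1.10; that library also had the highest cardiomyocyte and adipocyte marker sums and an S1pr1 level that goes against its label.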

How the results depend on the processing

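Of 687 values of the genes' fold changes under alternatives, 649 kept their direction and side of the threshold, 37 changed sign and 1, Esr1 in S1pr1 KO against C3 KO under DESeq2, passed the threshold. That was the only one of the 10 genes called under any alternative run, so the count called was 1 there under DESeq2 and 0 elsewhere. The causes of these changes were not tested. Signs that changed for C3 KO against WT (log2 scale): Spdef -0.055 without both libraries that go against their label. For S1pr1 KO against WT they were Prlr -0.13 without both; Areg -0.016 with voom; Areg -0.47 and Erbb3 -0.078 with the ciliated score; Prlr -0.081, Erbb2 0.0083 and Tfap2c -1.04 with the milk protein score. With the cardiomyocyte score, chosen after seeing the data, they were Prlr -0.62, Erbb2 0.059, Erbb4 -0.45 and Tfap2c -0.25. For S1pr1 KO against C3 KO they were Erbb2 0.051 without both, Spdef -0.036 with the ciliated score, Erbb2 0.061, Trps1 -0.038 and Tfap2c -0.059 with the milk protein score, and Prlr -0.20, Erbb2 0.077 and Erbb4 -0.63 with the cardiomyocyte score.

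Leaving out each library in turn gave for C3 KO against WT Erbb2 -0.064 to 0.015 (WT replicate 3), Trps1 -0.072 to 0.18 (WT replicate 3 and C3 KO replicate 3) and Spdef -0.055 to 0.44 (C3 KO replicate 4), where the library named turned the sign. For S1pr1 KO against WT it gave Prlr -0.12 to 0.51 (S1pr1 KO replicate 2), Areg -0.17 to 0.21 (WT replicates 3 and 4 and S1pr1 KO replicate 1), Erbb2 -0.10 to 0.0026 (WT replicate 3) and Tfap2c -0.54 to 1.52 (WT replicate 4 and S1pr1 KO replicate 3). For S1pr1 KO against C3 KO it gave Pgr -0.048 to 0.29 (S1pr1 KO replicate 1) and Erbb2 -0.057 to 0.038 (C3 KO replicates 1, 2 and 4, S1pr1 KO replicates 2 and 3).

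The number of genes called among all was 2 for C3 KO against WT, and 177 with DESeq2, 21 with voom, 6 with either FPKM pseudocount, 1 with only these groups or with the ciliated score, 31 without both libraries, and 1 to 32 leaving out each library, highest without C3 KO replicate 4. It was 274 for S1pr1 KO against WT, and 1279 with DESeq2, 928 with voom, 150 and 171 with FPKM pseudocounts of 0.1 and 1, 39 with the ciliated, 104 with the milk protein and 1 with the cardiomyocyte score, 474 without both libraries, and 2 to 580 leaving out each library, lowest without S1pr1 KO replicate 4 and highest without C3 KO replicate 4. It was 0 for S1pr1 KO against C3 KO, and 317 with DESeq2, 36 with voom, 6 and 7 with the FPKM pseudocounts, 15 without a filter, 3 without both libraries, and 0 to 18 leaving out each library. The FPKM filter left 6 of the 10 genes to test. No paired analysis was possible because the labels give the groups no shared replicate numbers. Depth limits Tfap2c, Erbb4 and Prlr most.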
